A study of Mus musculus with 30 samples.

Results

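The cadherins and protocadherins of mouse sclera were followed as 56 genes, namely every gene on the array whose transcript cluster was annotated with exactly 1 symbol made of Cdh, Pcdh or Pcdhb and a number. A transcript cluster is the set of probes that reads 1 transcribed region. The 56 genes were among 19938 genes annotated in this way and held 60 of the 35556 transcript clusters of the array. There were 23 Cdh genes, of which 5 were type I and 13 were type II classical cadherins and 5 were other cadherins. There were also 11 Pcdh genes, of which 8 were delta protocadherins, and 22 beta protocadherins, Pcdhb1 to Pcdhb22. Of the 4 genes with more than 1 transcript cluster (Cdh18, Cdh24, Pcdh9 and Pcdh15), the brightest over the arrays was used. No gene was removed by a filter on signal.

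RNA of mouse sclera was hybridized to 30 Mouse Gene 1.0 ST arrays, 6 for each of 5 ages (weeks 1, 2, 3, 6 and 8), each with the sclera of 1 mouse of the inbred albino strain Balb/cJ. No treatment or mutant allele was given for any group, and the animals belonged to the same family, so the ages differ in nothing else that the labels name. Sex, litter and scan date were not given in the sources used here. Values are the deposited log2 signals. The normalization behind them is not settled, because robust multiarray averaging is named in the study's methods and GCRMA in the submitters' processing notes. The study removed batch effects with scan date as the factor, and whether the deposited values come from before or after that step is not given.

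Cadherins are adhesion proteins of the cell surface that bind the same cadherin on a neighbouring cell in the presence of calcium. Classical cadherins hold adherens junctions together through catenins, which tie their cytoplasmic tails to actin. Type I members such as E-cadherin and N-cadherin mark whole tissue layers, while type II members are often spread among mesenchyme, endothelium and groups of neurons. Protocadherins adhere more weakly and are best known from the nervous system. The beta protocadherins lie side by side in a cluster of genes, each with its own promoter, and single neurons switch on a few of them, with the help of CTCF, cohesin and DNA methylation.

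Median signals of the arrays lay between 6.15 and 6.37, and their mean interquartile range by week lay between 2.36 (week 2) and 2.75 (week 3). The label of sclera was checked with 14 measured markers of scleral fibroblasts, whose week 1 and week 2 arrays had mean log2 signals of 10.15 ± 0.33 and 9.02 ± 0.51 (SD, n = 6). Markers of other tissues of the eye were measured as well and moved with age. From week 1 to 2, 15 of 15 genes of striated muscle, 11 of 11 of photoreceptors and 10 of 11 of retinal pigment epithelium were downregulated, and 13 of 13 of surface epithelium were upregulated. In bulk tissue, fewer cells of a type and less RNA per cell cannot be told apart. No detection call came with the values, and 19 of the 56 genes, of which 2 were beta protocadherins, lay above the median of all transcript clusters.

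Over the 5 weeks, the beta protocadherins were highest in week 1, fell in week 2, were higher again in weeks 3 and 6 and were low in week 8. Averaged over the 22 genes, the log2 signals of weeks 1, 2, 3, 6 and 8 were 5.97 ± 0.34, 4.89 ± 0.072, 5.39 ± 0.10, 5.42 ± 0.13 and 4.98 ± 0.16 (SD, n = 6). Week 1 was the highest week for 21 of the 22 genes, week 2 was the lowest for 16 and week 8 for 5. The 18 classical cadherins had no such common course. Their averages for the same weeks were 6.64 ± 0.23, 6.20 ± 0.058, 6.35 ± 0.078, 6.29 ± 0.14 and 6.16 ± 0.17. Week 1 was the highest week for 9 of the 18, and the lowest week was week 2, 3, 6 or 8 for 4 genes each and week 1 for 2.

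Markers of retinal pigment epithelium, Mueller glia, photoreceptors and scleral fibroblasts moved like the beta protocadherins over weeks 1 to 3. Not all of them did so from week 6 to 8. The mean of 11 genes of retinal pigment epithelium was 9.76 ± 0.55, 6.43 ± 0.71, 8.42 ± 0.14, 9.10 ± 0.51 and 7.95 ± 0.81 in weeks 1, 2, 3, 6 and 8 (SD, n = 6), and that of 8 genes of Mueller glia was 9.11 ± 0.54, 7.27 ± 0.18, 8.33 ± 0.20, 8.29 ± 0.25 and 7.91 ± 0.28. Photoreceptor genes, 11 in number, stood at 9.46 ± 1.26, 5.92 ± 0.70, 7.28 ± 0.59, 6.997 ± 0.49 and 6.93 ± 0.97. All 3 of these retinal sets were highest in week 1, lowest in week 2 and higher again in week 3. So were the 14 markers of scleral fibroblasts, with means of 10.15, 9.02, 9.90, 9.52 and 9.58. In week 8 versus 6 the median log2 fold change of the beta protocadherins was -0.39. It was -1.08 for retinal pigment epithelium, -0.16 for Mueller glia, -0.05 for photoreceptors and 0.16 for scleral fibroblasts. The 12 genes of inner retinal neurons, at 7.45, 6.27, 6.78, 6.49 and 6.22, were lowest in week 8. The part of these tissues in the course of the beta protocadherins was not tested.

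**Figure D1:**
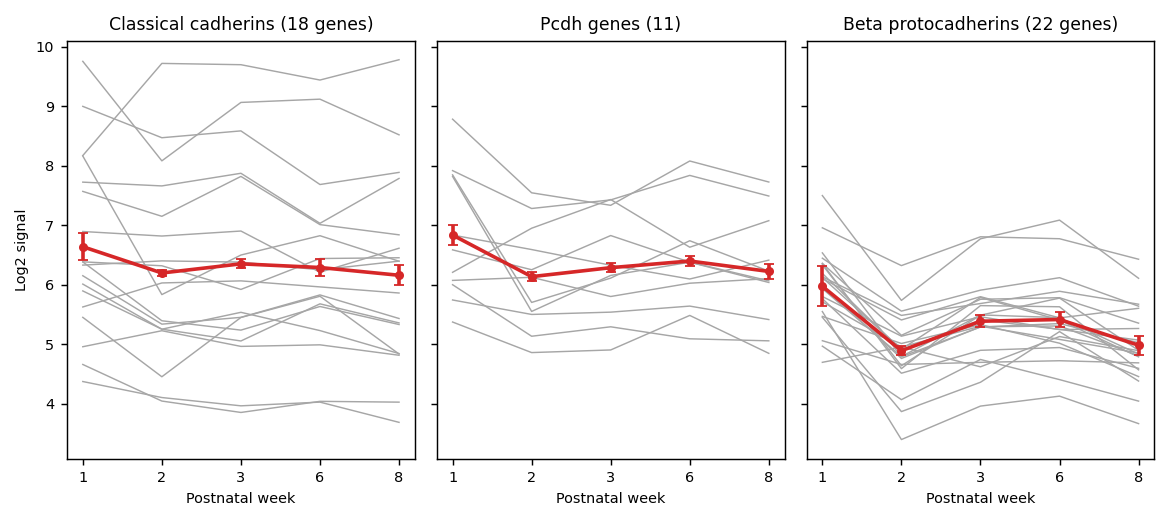
Log2 signal (vertical axis) by postnatal week (horizontal axis) for the classical cadherins, the Pcdh genes and the beta protocadherins. Grey lines are the week means of single genes, and red points and bars are the mean of the genes of a panel and its SD over 6 arrays; the beta protocadherins start at 5.97 in week 1 and lie at 4.89 in week 2.

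The distance between the families was measured on each array as the mean of the beta protocadherins minus the mean of the classical cadherins. This difference ran from -0.84 to -0.48 on the arrays of week 1 and from -1.44 to -1.07 on those of week 2, so the arrays of these weeks did not overlap. For weeks 3, 6 and 8 it was -0.96 ± 0.068, -0.87 ± 0.043 and -1.18 ± 0.069 (SD, n = 6). Only its change over age can be read, since signals of different probes have no common scale. It carries no test here, since the genes were chosen with results of these data known.

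In the comparison of week 2 versus 1, 18 of the 56 genes were called, which means that they changed by 2-fold or more with an adjusted p up to 0.05 (limma, Benjamini-Hochberg over all transcript clusters). Of all transcript clusters 11.6% were called, 3.82% higher and 7.73% lower. Only Cdh1 was higher, and 17 genes were lower: 12 of the 22 beta protocadherins, 3 of the 11 Pcdh genes (Pcdh9, Pcdh15 and Pcdh18) and 2 of the 18 classical cadherins (Cdh2 and Cdh11). With the spread of signals on each array as a covariate, 16 of the 18 genes were still called, and Pcdh18 and Pcdhb22 were not, at -0.84 and -0.91. The mean interquartile range of the arrays was 2.70 in week 1 and 2.36 in week 2, so this covariate cannot be fully told apart from age. The median log2 fold change was -1.17 for the beta protocadherins, -0.51 for the Pcdh genes, -0.47 for the classical cadherins and 0.06 for all transcript clusters. By the adjusted p alone, 21 of the 22 beta protocadherins were lower and 1, Pcdhb1, was higher, beside 31.1% lower and 37.2% higher among all transcript clusters. For 15 of the 22, every array of week 2 lay below every array of week 1, which held for 15.5% of all transcript clusters.

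**Figure D2:**
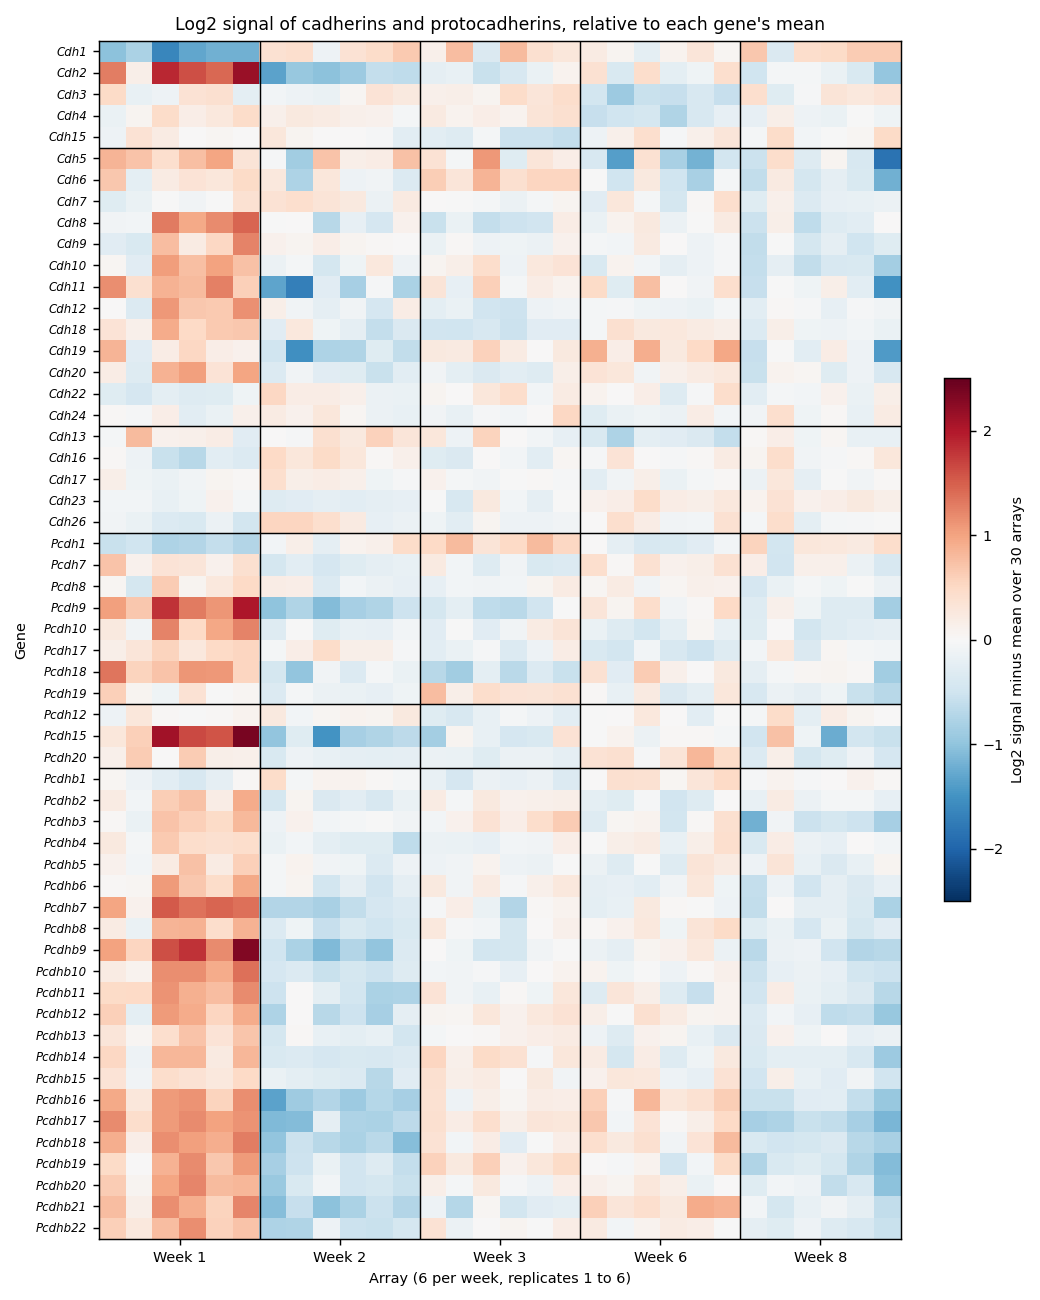
Log2 signal of each of the 56 genes (rows) on each of the 30 arrays (columns, 6 per week), minus the mean of the gene over the 30 arrays. Red is above and blue below that mean, and black lines separate the weeks and the groups of genes; most beta protocadherins at the bottom are red in week 1 and blue in week 2, and Cdh1 in the first row is blue in week 1.

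Among the classical cadherins, N-cadherin (Cdh2), which joins neural, lens and many mesenchymal cells, had the largest change. Its log2 signal ran from 6.89 to 8.91 with a median of 8.26 on the 6 arrays of week 1, and from 5.41 to 6.14 with a median of 5.82 in week 2. In weeks 3, 6 and 8 it ran from 6.18 to 6.83, from 6.36 to 7.18 and from 5.78 to 6.70. Week 1 thus stood above all other weeks except that 1 of its arrays, at 6.89, lay inside the range of week 6. In week 2 versus 1 it changed by -2.33 on the log2 scale (SE 0.23, fold change -5.02, adjusted p = 3.03e-09), and the log2 fold change of week 8 versus 1 was -1.77 (SE 0.23, adjusted p = 5.86e-07).

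E-cadherin (Cdh1), the main cadherin of epithelia, took the opposite course. Its log2 signal ran from 7.73 to 8.57 with a median of 8.17 in week 1 and from 9.23 to 10.01 with a median of 9.77 in week 2. The medians of weeks 3, 6 and 8 were 9.70, 9.44 and 9.92, and every array of the later weeks, the lowest of them at 9.01, lay above all of week 1. The log2 fold change was 1.55 (SE 0.18, fold change 2.93, adjusted p = 3.37e-08) in week 2 versus 1 and 1.61 (SE 0.18, adjusted p = 5.69e-08) in week 8 versus 1. The 13 measured markers of surface epithelium moved with it, and their mean log2 signal lay between 7.40 and 9.35 in week 1 and between 10.20 and 11.10 in week 2. Their part in the result was not tested.

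P-cadherin (Cdh3), another cadherin of epithelia, is the neighbour of Cdh1 on chromosome 8, with no coding gene between them in the RefSeq annotation. It ran from 7.37 to 8.09 in week 1, from 7.45 to 7.95 in week 2 and from 7.69 to 8.07 in week 3. In week 6 it ran from 6.71 to 7.21, below all arrays of the other weeks, and in week 8 from 7.32 to 8.04. Its log2 fold change was -0.06 (SE 0.13, adjusted p = 0.688) in week 2 versus 1, -0.84 (SE 0.13, adjusted p = 7.1e-06) in week 6 versus 3 and 0.75 (SE 0.13, adjusted p = 6.78e-05) in week 8 versus 6. These changes stayed under a 2-fold difference. Across the 30 arrays, with the week means removed, Cdh1 and Cdh3 had a correlation of 0.48, while that of their 5 week means was -0.00055.

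The type I cadherins of retina and of muscle moved less. R-cadherin (Cdh4), known from the retina, had log2 fold changes of -0.08 in week 2 versus 1 (adjusted p = 0.494) and -0.69 in week 6 versus 3 (adjusted p = 9.9e-07). M-cadherin (Cdh15), the cadherin of myoblasts and satellite cells, had -0.07 in week 2 versus 1 (adjusted p = 0.629), with signals from 6.17 to 6.66 in week 1 and from 6.04 to 6.59 in week 2. In the same comparison the mean of the 15 markers of striated muscle went from 11.03 ± 0.80 to 6.98 ± 0.64 (SD, n = 6), and 0 of 7 markers of myogenic progenitors were called by limma, with a median log2 fold change of -0.25 (1 lower and 2 higher by the adjusted p alone). In week 6 versus 3, where 15 of 15 markers of striated muscle were upregulated, Cdh15 had 0.52 (SE 0.12, adjusted p = 0.000524).

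Of the 13 type II cadherins, Cdh11 was the only one called in week 2 versus 1, although 7 were lower and 1, Cdh22, higher by the adjusted p alone. Among all transcript clusters 7.73% were called lower, and 31.1% were lower and 37.2% higher by the adjusted p alone. Cdh11, known as the cadherin of osteoblasts and other mesenchymal cells, ran from 9.31 to 10.17 with a median of 9.73 in week 1 and from 7.19 to 8.88 with a median of 8.10 in week 2. In weeks 3, 6 and 8 its medians were 9.05, 9.12 and 8.72. The arrays of weeks 1 and 2 did not overlap, while those of week 3, from 8.71 to 9.50, overlapped both. Its log2 fold change was -1.67 (SE 0.26, fold change -3.19, adjusted p = 2.6e-06) in week 2 versus 1, 0.98 (SE 0.26, adjusted p = 0.0026) in week 3 versus 2 and -1.24 (SE 0.26, adjusted p = 0.000263) in week 8 versus 1. The markers of scleral fibroblasts moved with it, 14 of 14 being lower by the adjusted p alone in week 2 versus 1 and 8 of 14 called. Their part in the result was not tested.

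Cdh19, a cadherin of Schwann cells and their precursors, lay closest to the threshold. It ran from 4.92 to 6.04 in week 1, from 3.67 to 4.89 in week 2, from 5.21 to 5.78 in week 3, from 5.36 to 6.16 in week 6 and from 3.79 to 5.39 in week 8. Its log2 fold change was -0.998 (SE 0.22, adjusted p = 0.000265) in week 2 versus 1, 0.997 (SE 0.22, adjusted p = 0.00059) in week 3 versus 2 and -0.97 (SE 0.22, adjusted p = 0.00095) in week 8 versus 6. It was therefore called in none of them.

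**Figure D3:**
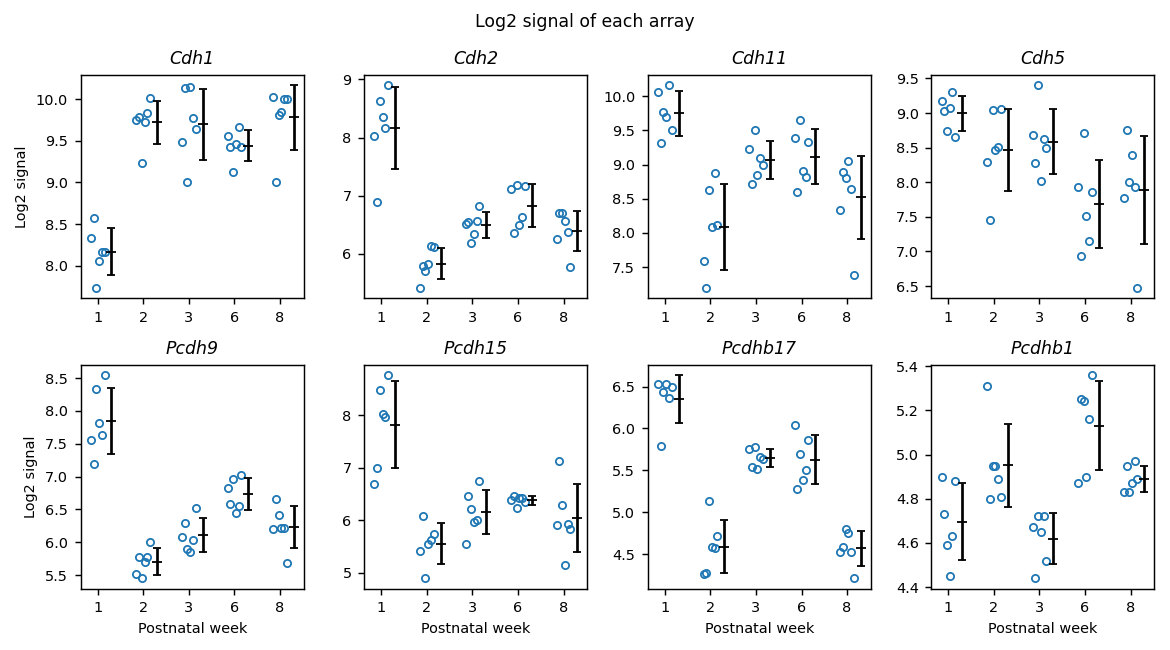
Log2 signal of 8 genes (vertical axes, each with its own range) on single arrays by postnatal week (horizontal axes). Circles stand for single arrays, and black marks are the mean and SD; Cdh1 is lowest in week 1, Cdh2, Pcdh9, Pcdh15 and Pcdhb17 are highest there, and Pcdhb1 is not.

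VE-cadherin (Cdh5), the junction protein of endothelium, was lower by the adjusted p in week 6 versus 3 and not in week 2 versus 1. It ran from 8.65 to 9.31 with a median of 9.05 in week 1, and its medians were 8.49, 8.56, 7.68 and 7.96 in weeks 2, 3, 6 and 8. The log2 fold change was -0.53 (SE 0.31, adjusted p = 0.134) in week 2 versus 1, -0.90 (SE 0.31, adjusted p = 0.0157) in week 6 versus 3 and -1.11 (SE 0.31, adjusted p = 0.00415) in week 8 versus 1. The arrays overlapped in each of these comparisons, since week 6 ran from 6.94 to 8.71, week 3 from 8.02 to 9.41 and week 8 from 6.47 to 8.76. In week 6 versus 3, 11 of 12 other endothelial markers were downregulated, and their mean went from 9.38 ± 0.42 to 7.81 ± 0.51 (SD, n = 6). The courses differed in week 3 versus 2. There Cdh5 had 0.12 (SE 0.31, adjusted p = 0.776), while all 12 markers had higher means, 8 of them by the adjusted p alone. Their part in the change of Cdh5 was not tested.

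Cdh8 and Cdh10, both known from subsets of neurons, were called in week 8 versus 1 but not in week 2 versus 1. Cdh8 ran from 5.50 to 7.06 in week 1, from 4.91 to 5.70 in week 2 and from 4.97 to 5.75 in week 8, with log2 fold changes of -0.99 (SE 0.22, adjusted p = 0.000265) in week 2 versus 1 and -1.05 (SE 0.22, adjusted p = 0.00026) in week 8 versus 1. Cdh10 ran from 5.06 to 6.39 in week 1, from 4.91 to 5.62 in week 2 and from 4.50 to 5.13 in week 8, with log2 fold changes of -0.64 (SE 0.17, adjusted p = 0.00153) and -1.05 (SE 0.17, adjusted p = 1.19e-05). For both genes the arrays of week 1 overlapped those of the later weeks. Cdh18 and Cdh20 had -0.76 (SE 0.12, adjusted p = 4.18e-06) and -0.81 (SE 0.16, adjusted p = 9.7e-05) in week 2 versus 1, and Cdh6 had -0.81 (SE 0.20, adjusted p = 0.00121) in week 6 versus 3. Cdh7, Cdh22 and Cdh24 stayed within log2 fold changes of -0.26 and 0.40 in all 5 comparisons. Cdh9 and Cdh12 were among the 3 dimmest Cdh genes together with Cdh17, whose week means lay between 3.93 and 4.12.

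The 5 cadherins outside the classical groups were called in no comparison. So few genes cannot be told apart from all transcript clusters. Of those, 11.6%, 4.39%, 7.58% and 3.78% were called in the 4 successive comparisons and 7.19% in week 8 versus 1. T-cadherin (Cdh13), which is held in the membrane by a lipid anchor, had a log2 fold change of 0.10 (adjusted p = 0.533) in week 2 versus 1 and -0.51 (adjusted p = 0.0037) in week 6 versus 3. Cdh16, first known from kidney, and Cdh26 were higher in week 2 versus 1 by the adjusted p alone, at 0.62 (SE 0.11, adjusted p = 3.53e-05) and 0.50 (SE 0.13, adjusted p = 0.00112). Cdh23, which forms the tip links of hair cells together with Pcdh15, had -0.19 (SE 0.08, adjusted p = 0.0356).

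Pcdh15 and Pcdh9 had the largest changes among the Pcdh genes. Pcdh15 ran from 6.68 to 8.77 with a median of 7.99 in week 1 and from 4.89 to 6.08 with a median of 5.59 in week 2, with no overlap. In weeks 3, 6 and 8 its medians were 6.11, 6.40 and 5.92, and the range of week 8, from 5.14 to 7.12, reached into that of week 1. In week 2 versus 1 it changed by -2.27 on the log2 scale (SE 0.29, fold change -4.82, adjusted p = 1.94e-07), and in week 8 versus 1 by -1.78 (SE 0.29, adjusted p = 1.52e-05). A dimmer transcript cluster of Pcdh15 went the other way, with 0.82 (SE 0.11, adjusted p = 2.88e-07) in week 2 versus 1 and 0.54 (SE 0.11, adjusted p = 0.000175) in week 8 versus 1, so the direction for Pcdh15 rests on which of its probe sets is read.

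Pcdh9, a delta protocadherin known from neurons, ran from 7.19 to 8.55 with a median of 7.73 in week 1 and from 5.45 to 6.01 with a median of 5.74 in week 2. All its arrays of weeks 2, 3, 6 and 8 lay below all of week 1, the highest of them at 7.03. The log2 fold change was -2.14 (SE 0.18, fold change -4.42, adjusted p = 2.87e-10) in week 2 versus 1 and -1.62 (SE 0.18, adjusted p = 6.26e-08) in week 8 versus 1. Its other transcript cluster had -2.35 in week 2 versus 1. Within weeks, Pcdh9 and Cdh2 had a correlation of 0.89 across the 30 arrays, and that of their 5 week means was 0.99. This was the highest of the named pairs. The values were 0.48 and 0.93 for Cdh2 with Cdh11, and 0.02 and 0.12 for Pcdh15 with Cdh23.

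Pcdh18, a delta protocadherin of the other subgroup, ran from 8.43 to 9.23 with a median of 8.79 in week 1, from 6.91 to 7.84 with a median of 7.63 in week 2 and from 7.03 to 7.97 in week 8. Its log2 fold change was -1.24 (SE 0.18, fold change -2.36, adjusted p = 8.88e-07) in week 2 versus 1, 0.74 (SE 0.18, adjusted p = 0.000782) in week 6 versus 3 and -1.06 (SE 0.18, adjusted p = 1.93e-05) in week 8 versus 1. Pcdh1, known from airway epithelium, was the only Pcdh gene higher in week 2 versus 1 by the adjusted p alone. It ran from 6.08 to 6.36 in week 1, from 6.64 to 7.32 in week 2, from 7.19 to 7.66 in week 3, from 6.46 to 6.86 in week 6 and from 6.40 to 7.42 in week 8, all of the later arrays lying above week 1. Its log2 fold change was 0.74 (SE 0.13, adjusted p = 1.32e-05) in week 2 versus 1 and -0.80 (SE 0.13, adjusted p = 6.55e-06) in week 6 versus 3.

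The remaining Pcdh genes stayed under a 2-fold change in every comparison. Pcdh19 rose in week 3 versus 2 by the adjusted p alone, by a log2 fold change of 0.57 (SE 0.13, adjusted p = 0.000553), from a range of 6.08 to 6.38 to one of 6.57 to 7.19. Pcdh20 had -0.64 (SE 0.12, adjusted p = 0.000104) in week 8 versus 6, with signals from 5.06 to 5.92 in week 6 and from 4.65 to 5.24 in week 8. Pcdh10 had -0.87 (SE 0.16, adjusted p = 4.3e-05) in week 2 versus 1 and Pcdh7, which was the second brightest Pcdh gene after Pcdh18, had -0.64 (SE 0.12, adjusted p = 4.6e-05). Pcdh8 and Pcdh12 passed the adjusted p in neither direction there.

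The promoters of Pcdh15, Pcdh9, Pcdh18 and Cdh8 are shown because these 4 genes had the largest falls from week 1 to 2 among the genes with a promoter in the RefSeq table that could be printed. Each is the 250 bases before 1 annotated start, 5′ to 3′ on the strand of the gene, in build GRCm38.p6, and capitals mark CCAAT, or ATTGG on the opposite strand. They lie at chr10:73821617-73821866 (plus strand), chr14:93890680-93890929 (minus), chr3:49757317-49757566 (minus) and chr8:99416472-99416721 (minus).
Pcdh15: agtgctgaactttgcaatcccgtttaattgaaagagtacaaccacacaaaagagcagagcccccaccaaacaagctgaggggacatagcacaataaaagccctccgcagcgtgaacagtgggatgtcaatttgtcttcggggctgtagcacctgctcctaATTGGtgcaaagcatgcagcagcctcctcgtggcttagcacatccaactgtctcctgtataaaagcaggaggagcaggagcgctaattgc
Pcdh9: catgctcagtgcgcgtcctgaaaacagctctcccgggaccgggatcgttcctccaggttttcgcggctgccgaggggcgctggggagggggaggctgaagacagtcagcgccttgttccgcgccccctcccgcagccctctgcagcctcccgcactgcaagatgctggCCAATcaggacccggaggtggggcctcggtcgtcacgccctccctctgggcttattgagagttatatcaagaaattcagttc
Pcdh18: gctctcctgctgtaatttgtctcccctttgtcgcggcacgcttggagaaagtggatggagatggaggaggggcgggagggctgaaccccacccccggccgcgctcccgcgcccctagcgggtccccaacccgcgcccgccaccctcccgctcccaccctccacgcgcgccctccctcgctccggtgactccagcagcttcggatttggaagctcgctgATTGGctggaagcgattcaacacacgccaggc
Cdh8: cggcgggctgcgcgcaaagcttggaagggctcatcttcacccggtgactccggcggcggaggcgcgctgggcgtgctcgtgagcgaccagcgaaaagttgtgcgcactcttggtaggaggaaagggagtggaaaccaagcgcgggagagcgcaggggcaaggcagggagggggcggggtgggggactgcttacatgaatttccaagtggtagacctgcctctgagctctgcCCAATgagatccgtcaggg
The Pcdh15 window had a GC content of 50.4% and 6 CG pairs, while those of Pcdh9, Pcdh18 and Cdh8 had 63.6%, 68% and 64.4% and 18, 23 and 20 CG pairs. Each window held CCAAT once on either strand. Of the 5 genes with a listed window that were called lower in week 2 or 8 versus week 1, 4 held it. Among all 32851 RefSeq windows of this length, 33.8% held it, and of the 25 windows of the 22 cadherin and protocadherin genes listed there 60% did. A match is a string of letters and not a measured binding site.

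The 22 beta protocadherin genes form an unbroken run on chromosome 18 in the order of their numbers, with no other coding gene inside it. In week 2 versus 1 the change was not the same along the run. Of the first 6 genes, Pcdhb1 to Pcdhb6, 0 were called, and their log2 fold changes lay between -0.76 and 0.26 with a median of -0.55. Of the other 16, Pcdhb7 to Pcdhb22, 12 were called lower, and their values lay between -2.15 and -0.64 with a median of -1.24. The 4 of them not called were Pcdhb8, Pcdhb13, Pcdhb14 and Pcdhb15, at -0.89, -0.67, -0.90 and -0.64. Across the 22 genes, the change had a Pearson correlation of -0.56 with the place in the run, of -0.47 with the signal in week 1 and of 0.04 with the mean signal (Spearman -0.55, -0.37 and 0.02). The value for week 1 cannot be read as a result, since the week 1 signal is itself subtracted in the change. The split after the sixth gene was chosen after the values were seen, and genes of 1 cluster that resemble each other are not independent.

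**Figure D4:**
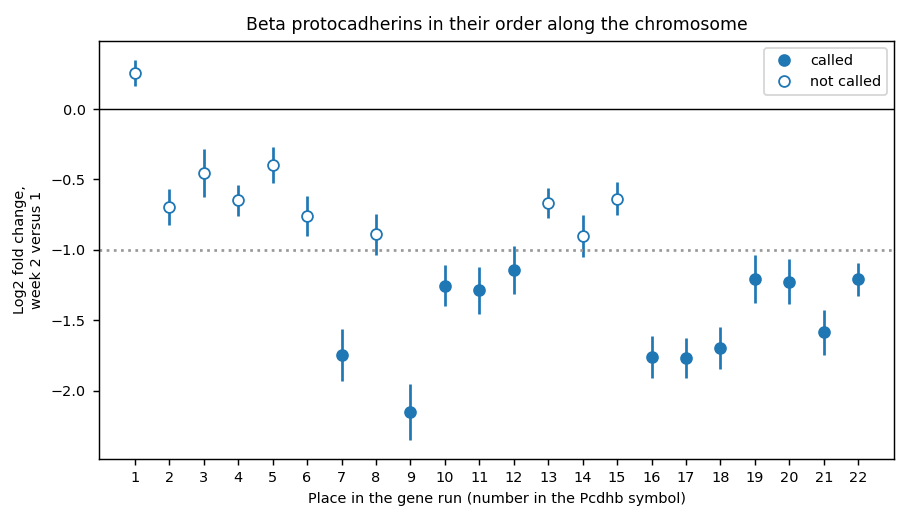
Log2 fold change of week 2 versus 1 (vertical axis, bars are standard errors) for the 22 beta protocadherins in their order along chromosome 18 (horizontal axis). Filled points were called at a 2-fold change (dotted line) and an adjusted p of 0.05; Pcdhb1 lies above 0 and no gene before Pcdhb7 is called.

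Pcdhb9 and Pcdhb17 had the largest falls of the run. Pcdhb9 ran from 4.67 to 6.45 with a median of 5.54 in week 1 and from 3.04 to 3.80 with a median of 3.37 in week 2. It was the dimmest beta protocadherin over the 30 arrays, at a mean of 4.14. Its arrays of week 2 lay below the lowest week mean, 3.93, of Cdh17, the dimmest of the 56 genes. The log2 fold change of Pcdhb9 was -2.15 (SE 0.20, fold change -4.44, adjusted p = 9.89e-10) in week 2 versus 1 and -1.88 (SE 0.20, adjusted p = 2.79e-08) in week 8 versus 1. Pcdhb17 ran from 5.79 to 6.53 in week 1, from 4.26 to 5.13 in week 2, from 5.51 to 5.78 in week 3, from 5.28 to 6.04 in week 6 and from 4.21 to 4.80 in week 8. Its log2 fold change was -1.77 (SE 0.14, adjusted p = 1.97e-10), 1.06 (SE 0.14, adjusted p = 1.49e-06), -0.02 (SE 0.14, adjusted p = 0.919) and -1.06 (SE 0.14, adjusted p = 1.61e-06) over the 4 successive comparisons. It was the only one of the 56 genes called in 3 of these comparisons, and the arrays did not overlap in any of the 3.

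Pcdhb16, the second brightest of the run after Pcdhb15, took the same course. It ran from 6.93 to 7.81 in week 1, from 5.30 to 5.92 in week 2, from 6.52 to 7.02 in week 3, from 6.62 to 7.48 in week 6 and from 5.69 to 6.38 in week 8. The log2 fold change was -1.76 (SE 0.15, adjusted p = 3.84e-10) in week 2 versus 1, 1.03 (SE 0.15, adjusted p = 4.23e-06) in week 3 versus 2 and -0.98 (SE 0.15, adjusted p = 9.61e-06) in week 8 versus 6. The other 9 genes called in week 2 versus 1 (Pcdhb7, Pcdhb10, Pcdhb11, Pcdhb12, Pcdhb18, Pcdhb19, Pcdhb20, Pcdhb21 and Pcdhb22) had log2 fold changes from -1.75 for Pcdhb7 to -1.14 for Pcdhb12. Pcdhb12 was the one among the called whose arrays overlapped, with 5.06 as the lowest of week 1 and 5.31 as the highest of week 2.

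Pcdhb1 did not share this course. Its log2 signal ran from 4.45 to 4.90 in week 1, from 4.80 to 5.31 in week 2, from 4.44 to 4.72 in week 3, from 4.87 to 5.36 in week 6 and from 4.83 to 4.97 in week 8. It had log2 fold changes of 0.26 (SE 0.09, adjusted p = 0.0166), -0.33 (SE 0.09, adjusted p = 0.0045), 0.51 (SE 0.09, adjusted p = 4.35e-05) and -0.24 (SE 0.09, adjusted p = 0.0462) over the 4 successive comparisons, none of which reached a 2-fold change. The medians of all transcript clusters had the same signs in these comparisons, at 0.06, -0.05, 0.09 and -0.07. With the week means removed, the correlation of Pcdhb1 with the other 21 genes across the 30 arrays had a median of -0.01. Over all 231 pairs of beta protocadherins that median was 0.50, and 218 pairs were above 0. Over the 153 pairs of classical cadherins it was 0.14, with 98 pairs above 0. Between classical cadherins and beta protocadherins it was 0.33, with 312 of 396 pairs above 0. These correlations are a description, since all genes were read on the same arrays. Whether the probes of 1 beta protocadherin also read RNA of others could not be checked.

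In week 1 the arrays differed among themselves, and the beta protocadherins were lowest on the array of replicate 2. Their mean log2 signal was 5.82, 5.40, 6.20, 6.22, 5.91 and 6.30 on replicates 1 to 6 of week 1. On the same arrays the mean of the 11 measured photoreceptor genes was 8.14, 7.67, 10.43, 9.98, 9.81 and 10.75, and that of the 12 genes of inner retinal neurons was 6.78, 6.59, 8.04, 7.65, 7.46 and 8.19. Replicates 1 and 2 were thus the lowest arrays of week 1 for all 3 groups. Cdh2, at 6.89 on replicate 2 and 8.03 on replicate 1, and Pcdh15, at 6.99 and 6.68, were also lowest there. So were the markers of Mueller glia, at 8.18 and 8.87. Other markers differed. Those of retinal pigment epithelium were lowest on replicate 2 at 8.68, then on replicate 6 at 9.68, and stood at 10.01 on replicate 1. Those of scleral fibroblasts were highest on replicate 2 at 10.535 and lowest on replicate 6 at 9.70, with replicate 1 at 9.91. Without week 1 replicate 2, a choice made after seeing the data, 23 of the 56 genes were called in week 2 versus 1 in place of 18. The part of retinal RNA in these results was not tested.

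In week 3 versus 2, which shares its week 2 arrays with the comparison above, 2 of the 56 genes were called, both higher, against 4.39% of all transcript clusters, or 2.67% higher and 1.72% lower. They were Pcdhb16 and Pcdhb17. Neither was called once the spread of signals on each array entered the fit as a covariate, at 0.54 and 0.61. The mean interquartile range was 2.36 in week 2 and 2.75 in week 3, so this covariate cannot be fully told apart from age. By the adjusted p alone, 18 of the 22 beta protocadherins were higher and Pcdhb1 was lower, beside 23.3% and 27.9% of all transcript clusters. The median log2 fold change was 0.50 for the beta protocadherins, 0.06 for the classical cadherins, 0.14 for the Pcdh genes and -0.05 for all transcript clusters. For 8 of the 22 the arrays of week 3 lay wholly above those of week 2, which held for 12.7% of all, and only Pcdhb1 lay wholly below, as did 10.3% of all. The next largest values of the 56 genes were those of Cdh19 and Cdh11, given above, and among the beta protocadherins those of Pcdhb19 at 0.87 (SE 0.17, adjusted p = 0.000153) and Pcdhb18 at 0.85 (SE 0.15, adjusted p = 5e-05). In the same comparison 10 of 11 markers of retinal pigment epithelium, 9 of 11 of photoreceptors and 4 of 8 of Mueller glia were upregulated.

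In week 6 versus 3, 0 of the 56 genes were called by limma, against 7.58% of all transcript clusters (3.9% higher and 3.68% lower), and 10 were higher and 8 lower by the adjusted p alone, beside 32.8% and 22.6% of all. The arrays did not overlap for 4 genes higher and 5 lower, beside 18.9% and 14.4% of all. At a fold change under 2, the largest changes were those of Cdh5 and Cdh3, described above, and a rise of Pcdhb21 by the adjusted p alone, at 0.85 (SE 0.16, adjusted p = 5.45e-05), from a range of 3.95 to 4.70 to one of 4.90 to 5.58. The beta protocadherins had a median of 0.02 in this comparison and the classical cadherins 0.04, beside 0.09 for all transcript clusters.

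In week 8 versus 6, 1 gene, Pcdhb17, was called, and it was lower, against 3.78% of all transcript clusters (1.11% higher and 2.67% lower). By the adjusted p alone, 12 of the 22 beta protocadherins were lower and 0 higher, beside 23.7% and 12.5% of all transcript clusters, and 2 of the 18 classical cadherins were lower and 2 higher. Week 8 lay wholly below week 6 for 8 of the 22 and wholly above for 0, beside 11.5% and 4.81% of all. The medians were -0.39 for the beta protocadherins, -0.17 for the classical cadherins and -0.07 for all transcript clusters. The call of Pcdhb17 ended without week 8 replicate 6, at -0.99, and under quantile normalization, median centring and array quality weights, at -0.93, -0.97 and -0.99.

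In week 8 versus 1, which shares its week 1 arrays with week 2 versus 1, 22 of the 56 genes were called, 1 higher and 21 lower, against 7.19% of all transcript clusters, 2.4% higher and 4.8% lower. Cdh1 was again the one that was higher. The lower ones were 13 of the 22 beta protocadherins, 5 of the 18 classical cadherins (Cdh2, Cdh5, Cdh8, Cdh10 and Cdh11) and 3 of the 11 Pcdh genes (Pcdh9, Pcdh15 and Pcdh18). Pcdhb3 was called here, at -1.01 (SE 0.17, adjusted p = 1.91e-05), and not in week 2 versus 1, where it stood at -0.45 (SE 0.17, adjusted p = 0.0189). The median was -1.04 for the beta protocadherins, -0.64 for the classical cadherins, -0.52 for the Pcdh genes and 0.02 for all transcript clusters. For 14 of the 22 beta protocadherins the arrays of week 8 lay wholly below those of week 1, which held for 11.4% of all, and for none wholly above, as for 9.31% of all. By the adjusted p alone 21 of the 22 were lower and 0 higher, beside 27.3% and 26.8% of all. Without week 8 replicate 6 the calls of Cdh5, Cdh10, Pcdh18, Pcdhb3 and Pcdhb22 ended, at -0.83, -0.99, -0.92, -0.97 and -0.96. With the array spread as a covariate, 9 of the 43 calls of all comparisons were lost, some of them in this comparison. Quantile normalization lost 4 of the 43, median centring 3 and array quality weights 2. Each of these losses also included calls of week 8 versus 1.

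**Figure D5:**
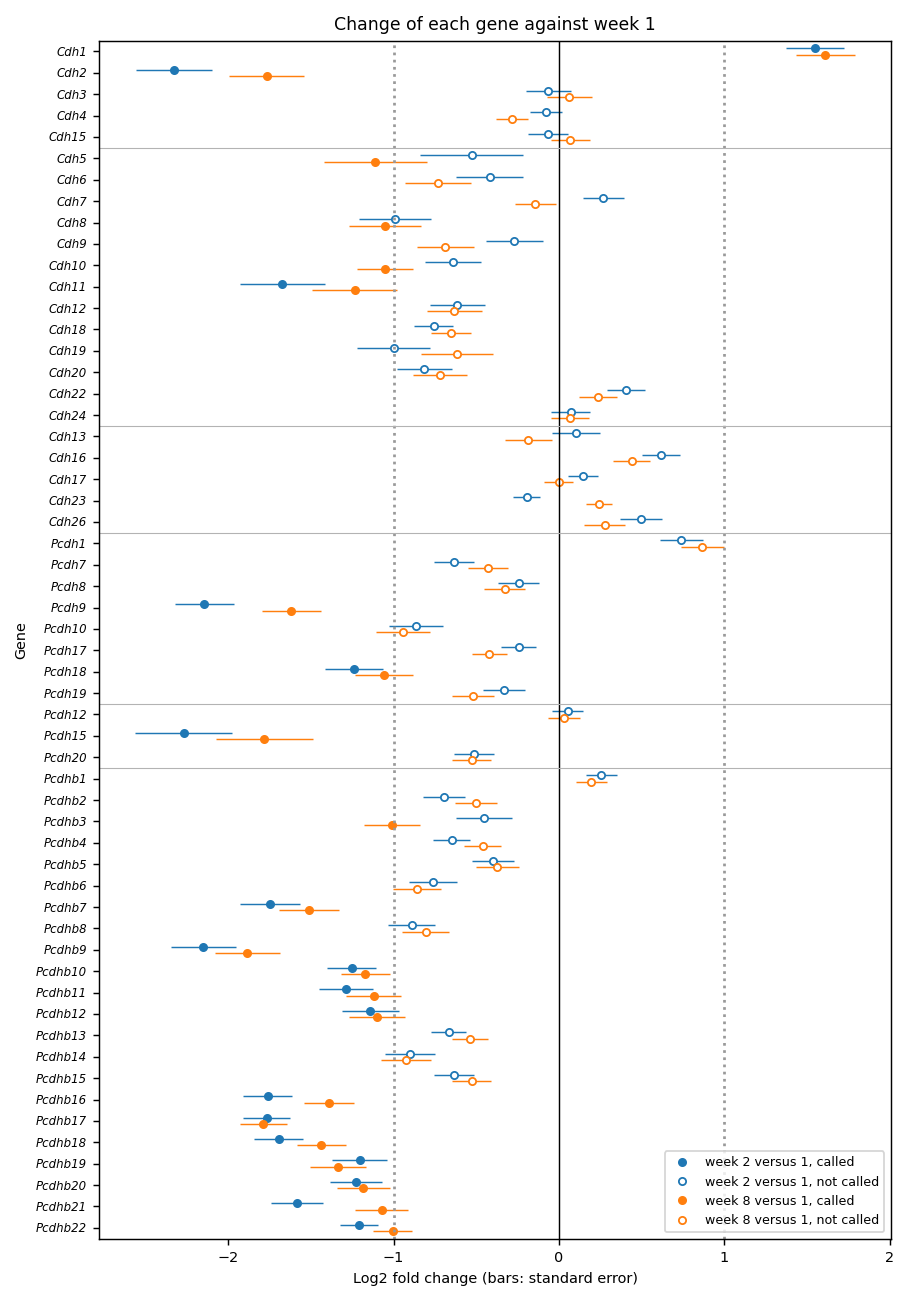
Log2 fold change (horizontal axis, bars are standard errors) of each of the 56 genes (vertical axis) in week 2 versus 1 (blue) and week 8 versus 1 (orange). Filled points were called, dotted lines mark a 2-fold change, and both comparisons share the arrays of week 1; Cdh1 alone is filled on the right and Cdh2 lies farthest left.

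Tested over all 5 weeks at once, 24 of the 56 genes varied, at an adjusted p of 0.05 or less in the F test of limma and a range of week means of at least 1 on the log2 scale, against 23% of all transcript clusters. They were 13 of the 22 beta protocadherins, 7 of the 18 classical cadherins (Cdh1, Cdh2, Cdh5, Cdh8, Cdh10, Cdh11 and Cdh19) and 4 of the 11 Pcdh genes (Pcdh1, Pcdh9, Pcdh15 and Pcdh18). The median range of week means was 1.18 for the beta protocadherins, 0.90 for the classical cadherins, 0.76 for the Pcdh genes and 0.67 for all transcript clusters. Cdh24, Cdh17 and Pcdh8 were the 3 genes that did not pass the adjusted p, at 0.669, 0.291 and 0.113. The other transcript cluster of Cdh24 had log2 fold changes of 0.35 in week 2 versus 1 (adjusted p = 0.00252, limma) and 0.25 in week 8 versus 1 (adjusted p = 0.0315).

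Of 30 measured catenins and other partners of cadherins at the junction, 2 were upregulated and 2 downregulated in week 2 versus 1, while 26 were not called. Their share is close to the 11.6% of all transcript clusters called there (3.82% higher and 7.73% lower). Plakoglobin (Jup), a catenin of adherens junctions and desmosomes, rose by 1.58 on the log2 scale (SE 0.19, adjusted p = 4.78e-08) and the actin crosslinker Actn4 by 1.03 (SE 0.16, adjusted p = 4.4e-06). Nectin3, an adhesion receptor beside cadherins, fell by 1.71 (SE 0.24, adjusted p = 5.35e-07) and the scaffold Lin7a by 1.48 (SE 0.25, adjusted p = 7.92e-06). Jup fell by 1.44 in week 6 versus 3 (SE 0.19, adjusted p = 2.67e-07) and rose by 1.22 in week 8 versus 6 (SE 0.19, adjusted p = 8.69e-06). The median of the 30 genes was -0.13 in week 2 versus 1.

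Of 16 measured factors known to act on the expression of clustered protocadherins, 1 was downregulated in week 2 versus 1, 0 upregulated and 15 not called, although 12 were lower and 0 higher by the adjusted p alone. Of all transcript clusters, 7.73% were called lower and 31.1% were lower by the adjusted p alone, so the share called is close to that of all. The one called was the DNA methyltransferase Dnmt3a, which fell by 1.08 (SE 0.13, adjusted p = 7.01e-08). Ctcf, which binds the promoters and enhancers of the cluster, had -0.67 (adjusted p = 4.6e-07), and the cohesin subunit Rad21 had -0.42 (adjusted p = 0.0017). By the adjusted p alone, 7 of the 16 were higher and 0 lower in week 3 versus 2, beside 23.3% and 27.9% of all, and 2 were higher and 8 lower in week 8 versus 6, beside 12.5% and 23.7% of all. In week 6 versus 3 there were 9 higher and 3 lower, beside 32.8% and 22.6% of all, and the cohesin subunit Stag2 rose by 1.06 (SE 0.15, adjusted p = 1.07e-06) and the cohesin release factor Wapl by 1.04 (SE 0.14, adjusted p = 7.82e-07). The median of the 16 was -0.40 in week 2 versus 1.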

How the data were processed

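The authors deposited a table of log2 signals, 1 value per transcript cluster and array, for 30 arrays. Per the labels and methods, biotin-labelled cDNA was hybridized, and the data were normalized in Partek 6.5. The values were used as deposited, and no column of other samples was present. Gene names came from the platform annotation of each probe set, and all 56 symbols matched the RefSeq gene table by gene ID. A linear model with a mean for each week was fitted to all 35556 transcript clusters in limma 3.58.1 (R 4.3.3), with moderated variances and Benjamini-Hochberg adjustment within each comparison. SEs come from that fit, and a fold change below 1 is written as the negative of its inverse. The fit was tested on simulated data. Samples were grouped by the age in their labels. The members, the lists of other genes and the markers were chosen with earlier results of these data known. The rule for genes named with values took those called, the brightest and dimmest of each family, near misses and the 2 largest changes of each family in each comparison. Other members, such as Cdh13, Cdh15 and Cdh23, and the factors Ctcf and Rad21 are outside it and were named for their known roles after their values were seen. Alternatives were quantile normalization, median centring, array quality weights, a block for the replicate number, only the 2 weeks compared, only transcript clusters above the median signal, the mean of the transcript clusters of a gene, the interquartile range of the array as a covariate, no fold threshold, and the fit without single arrays. Precision is limited by the 6 arrays per week.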

Additional observations from a re-analysis of the deposited data

Results flagged for a closer look

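In 17 of 280 sets of 6 arrays of 1 gene in 1 week, a single array stood far from the other 5, with a gap larger than Dixon's test allows, where chance gives about 14, or 1 in 20 sets. In week 1, Pcdhb17 (5.79, the next array at 6.36) and Pcdhb18 (5.59, the next at 6.33) were low on replicate 2, the array on which the photoreceptor markers were lowest. In week 2, Pcdhb16 was low at 5.30 and Pcdhb1 high at 5.31, both on replicate 1. Cdh7 at 4.85 and Pcdhb15 at 5.97 were low on replicate 5 of that week, and Cdh1 at 9.23 was low on replicate 3. In week 3, Pcdhb7 was low at 4.67 on replicate 4 and Cdh24 high at 6.87 on replicate 6. In week 6, Cdh3 was low at 6.71 on replicate 2 and Pcdhb6 high at 5.47 on replicate 5. In week 8, replicate 2 was low for Cdh1 at 9.01, with the next array at 9.81, and for Pcdh1 at 6.40, and high for Cdh26 at 5.63. Replicate 6 of week 8 was low for Pcdh18 at 7.03 and for Pcdhb14 at 3.53, and replicate 1 was low for Pcdh8 at 5.15.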

How the results depend on the processing

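Of 18 genes called in week 2 versus 1, 22 in week 8 versus 1 and 24 over the 5 weeks, the counts became 7, 8 and 9 with only transcript clusters above the median signal, where 19 of the 56 genes were left to test, and 44, 46 and 53 with no fold threshold. The 2 genes of week 3 versus 2 became 5 with quantile normalization, 4 with median centring, 1 above the median signal, 0 with the array spread as a covariate and 30 with no fold threshold. The 0 of week 6 versus 3 became 2 with the spread covariate and 18 with no fold threshold. The 1 gene of week 8 versus 6 became 0 with quantile normalization, median centring, array quality weights or the filter on signal, 3 with the spread covariate and 22 with no fold threshold, and it ranged from 0 (without week 8 replicate 6) to 2 (without week 8 replicate 2). The cause of these changes was not tested, apart from the smaller number of genes tested and the missing threshold. With the replicate number as a block, the counts were 18, 2, 0, 1, 22 and 24, as without it. The numbers do not pair the samples, since arrays of different weeks with the same number had correlations of their deviations from -0.41 to 0.46 with a median of 0.01 over 60 pairs. Of 489 repeats of a gene's call, 463 kept it, 26 lost it and 0 changed sign. This total does not measure robustness, since part of it was fixed in advance. The 43 repeats with no fold threshold could not lose a call. The block for the replicate number and the fit of only the 2 weeks left the log2 fold changes as they were. With the array spread as a covariate, 9 of 43 calls were lost. That spread differed between weeks, so this fit can also take out part of the change with age. With the mean of its transcript clusters, Pcdh15 was no longer called, at -0.72 in week 2 versus 1 and -0.62 in week 8 versus 1.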
